A study of Mus musculus with 16 samples.

Results

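CpG-dense stretches of the genome are rarely methylated in the mouse oocyte. Of 2323126 autosomal windows of 1000 bases that held a call, 16705 were CpG-dense, with 80 or more covered positions, each strand counted on its own, and at least 100 calls in all 16 libraries together. The pooled methylation level was above 75% in 798 of these, which is 4.78% of the CpG-dense windows, and these 798 methylated windows are described here. They were chosen by this pooled level, so that their high level is not a result and their levels are given as a description. Another 15186 CpG-dense windows lay below 25% and are called unmethylated, and 721 lay between. Windows start at multiples of 1000 in GRCm38.

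Methylation of a cytosine that is followed by a guanine is laid down in the growing oocyte by the DNA methyltransferase DNMT3A with its cofactor DNMT3L, largely over transcribed gene bodies that carry histone H3 trimethylated at lysine 36. CpG islands, the CpG-dense stretches at many gene starts, stay mostly free of it. A minority become methylated in the oocyte, among them the germline differentially methylated regions (gDMRs) of imprinted genes, where the maternal mark is kept after fertilization and decides which parental copy is expressed.

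The 16 libraries were made by post-bisulphite adapter tagging (PBAT), a method for small amounts of DNA, each from a pool of metaphase II (MII) oocytes. All females were C57BL/6J X CBA/Ca F1. IFC oocytes (n = 4) came from in vitro follicle culture: preantral follicles of 13-day-old females were cultured for 10 days with recombinant FSH and brought to ovulation with recombinant hCG and EGF, and the labels give the resulting age of 23 days. SO oocytes (n = 5) came from 23-day-old prepubertal females superovulated with eCG followed by hCG at 2.5 IU each, SOA oocytes (n = 4) from 10-week-old adults given 5 IU of each, and IV oocytes (n = 3) from 10-week-old adults that ovulated naturally without hormones. SO and SOA therefore differ in dose as well as age. The IV females were synchronized by contact with male pheromones, per the methods. A pool mixes oocytes of several females, and its level is an average over them.

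The libraries held 5218053 to 23065411 calls. The 4 IFC libraries had 5311009 to 8231898 and the 3 IV libraries 15644144 to 17275310, and SO and SOA each held both shallow and deep libraries. Over all calls, 37.6% to 43.7% were methylated. The oocyte marks looked as labelled with all libraries pooled. The Mest start window stood at 94.3%, and the Peg3 windows at and beside the start at 94.2% together. By library, Mest was lowest in IV1 (77.3% over 22 calls) and next in IFC4 (83.3% over 18 calls). The Snrpn start stood at 99.0% over 101 calls, of which IFC4 held 0, so it does not speak for single shallow libraries. The stretch 2 to 4 kb before the H19 start, which is unmethylated in oocytes, stood at 1.93% over 883 calls. The IV1 and IFC4 libraries stood apart from the others in the windows described here, and the results that turn on them are also given without them. The paper suspects slight contamination of IV1 with DNA of somatic cells, which it says might lower the gDMR levels measured there. It kept the library, and contamination was not tested here.

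The sequences below show what such a window holds, from the forward strand of GRCm38 with each CG in capitals. The Gnas locus, which encodes the stimulatory G protein subunit and other products from imprinted starts, holds both states, a contrast within 1 locus. The methylated stretch (chr2:174299634-174299933) lies in coding sequence of the XL alpha s form and holds 29 CpGs. The unmethylated stretch (chr2:174285000-174285299) lies in coding sequence of the Nesp form and holds 30. Their windows stood at 93.6% and 4.73%.
Gnas methylated: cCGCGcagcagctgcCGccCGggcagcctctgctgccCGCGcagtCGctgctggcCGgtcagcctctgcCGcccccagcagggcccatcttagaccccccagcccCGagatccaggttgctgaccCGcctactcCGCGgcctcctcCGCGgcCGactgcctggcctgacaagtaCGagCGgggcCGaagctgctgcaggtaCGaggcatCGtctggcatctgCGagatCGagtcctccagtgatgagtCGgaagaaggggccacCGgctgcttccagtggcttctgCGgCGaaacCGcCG
Gnas unmethylated: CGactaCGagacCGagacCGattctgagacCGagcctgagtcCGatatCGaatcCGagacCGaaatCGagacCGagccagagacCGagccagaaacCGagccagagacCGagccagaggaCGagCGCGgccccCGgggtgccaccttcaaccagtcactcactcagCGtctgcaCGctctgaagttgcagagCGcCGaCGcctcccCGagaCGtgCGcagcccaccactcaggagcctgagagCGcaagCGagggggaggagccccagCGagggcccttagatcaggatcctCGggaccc
The start region of Airn, the non-coding RNA that silences Igf2r on the paternal copy, lies within an intron of Igf2r and is a maternal gDMR. The stretch shown (chr17:12742190-12742489) holds 26 CpGs and stood at 96.6% over 298 calls.
Airn: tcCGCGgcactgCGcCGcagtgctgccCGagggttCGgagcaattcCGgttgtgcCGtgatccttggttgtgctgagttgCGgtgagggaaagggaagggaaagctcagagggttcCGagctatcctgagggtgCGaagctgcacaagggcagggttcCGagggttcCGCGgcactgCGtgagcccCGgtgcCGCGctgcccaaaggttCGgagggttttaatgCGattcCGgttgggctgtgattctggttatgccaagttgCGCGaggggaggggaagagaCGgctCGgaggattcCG
The last pair comes from windows that differed between groups, as described further on. Lrrc8a encodes a subunit of the volume-regulated anion channel, and its stretch (chr2:30256510-30256809, coding, 18 CpGs) was taken from the side of the window in which the IFC calls were low. Socs2 encodes a suppressor of cytokine signalling, and its stretch (chr10:95414644-95414943, 33 CpGs) is 37.7% coding.
Lrrc8a: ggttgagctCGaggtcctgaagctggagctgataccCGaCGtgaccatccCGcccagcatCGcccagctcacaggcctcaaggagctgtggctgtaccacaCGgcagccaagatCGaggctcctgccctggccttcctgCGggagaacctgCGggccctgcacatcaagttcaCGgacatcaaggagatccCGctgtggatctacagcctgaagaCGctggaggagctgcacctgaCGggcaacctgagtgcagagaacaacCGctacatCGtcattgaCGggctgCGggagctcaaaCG
Socs2: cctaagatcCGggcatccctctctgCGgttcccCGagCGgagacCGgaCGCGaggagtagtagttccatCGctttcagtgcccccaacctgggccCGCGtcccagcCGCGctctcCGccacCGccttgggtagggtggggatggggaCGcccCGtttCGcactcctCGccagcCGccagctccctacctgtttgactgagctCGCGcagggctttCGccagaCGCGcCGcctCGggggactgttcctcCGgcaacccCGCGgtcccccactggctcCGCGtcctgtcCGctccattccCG

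Most methylated windows lay well above the limit. Only 49 CpG-dense windows fell between 75% and 80%, while 268 fell between 90% and 95% and 366 above 95%. Above 80% lay 748 of the 798 (93.7%), and above 90% lay 634 (79.4%). The median level was 94.7%. The median window held 50 CpGs and 435.5 calls, and the calls ranged from 186 to 945. Just inside the limit lay windows in B9d2 (75.06%), Snd1 (75.11%) and Hivep1 (75.34%), and just outside it windows in Kdm6b (74.95%), Ulk3 (74.75%) and Shmt2 (74.61%). The reference holds 43532 CpGs in the methylated windows, of which 43074 (98.9%) had a call. Among the 14854 with at least 10 calls, 89.7% stood above 80% and 1.47% between 40% and 60%, from the same calls that chose the windows.

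**Figure D1:**
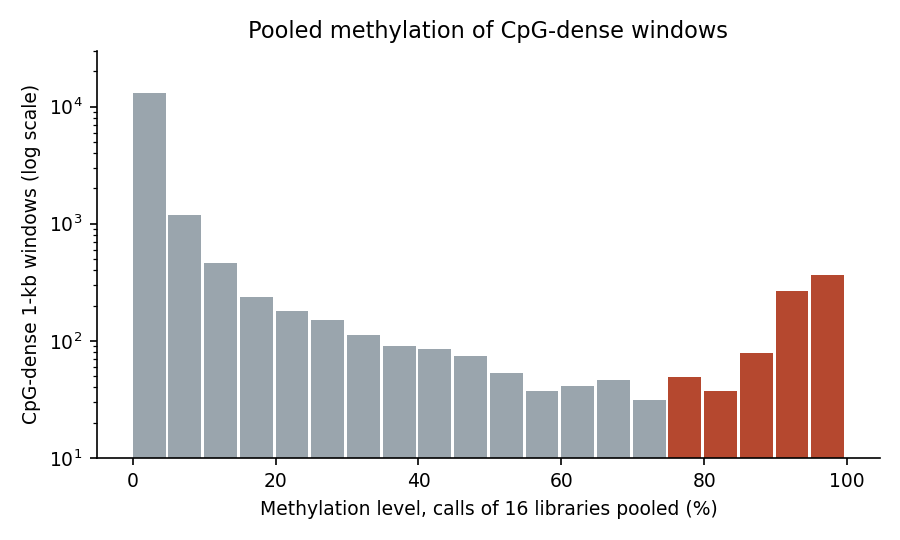
Pooled methylation level of the 16705 CpG-dense windows (x axis, %, calls of 16 libraries together, bins of 5 points) against the number of windows (y axis, log scale). The bins above 75% (red) hold the 798 methylated windows, with 366 in the highest bin, and the lowest bin holds 13114 windows.

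Methylated windows lay at other places within genes than unmethylated ones. A coding exon without any annotated start was present in 462 of the 798 (57.9%), against 16.3% of the unmethylated windows. The start of a protein-coding transcript was held by 197 (24.7%), against 62.4% of the unmethylated windows. Read the other way, 14.5% of the 3196 CpG-dense windows with a coding exon and no start were methylated, and 1.98% of the 9950 with a protein-coding start. Introns alone held 64 methylated windows, other exons 28, starts of non-coding or other transcripts 34, and 13 (1.63%) lay outside any gene. Of the unmethylated windows 5.93% lay outside any gene, so lying in a gene was common to both classes. These shares describe the windows, and no test was made of them, since the windows were chosen on the data.

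**Figure D2:**
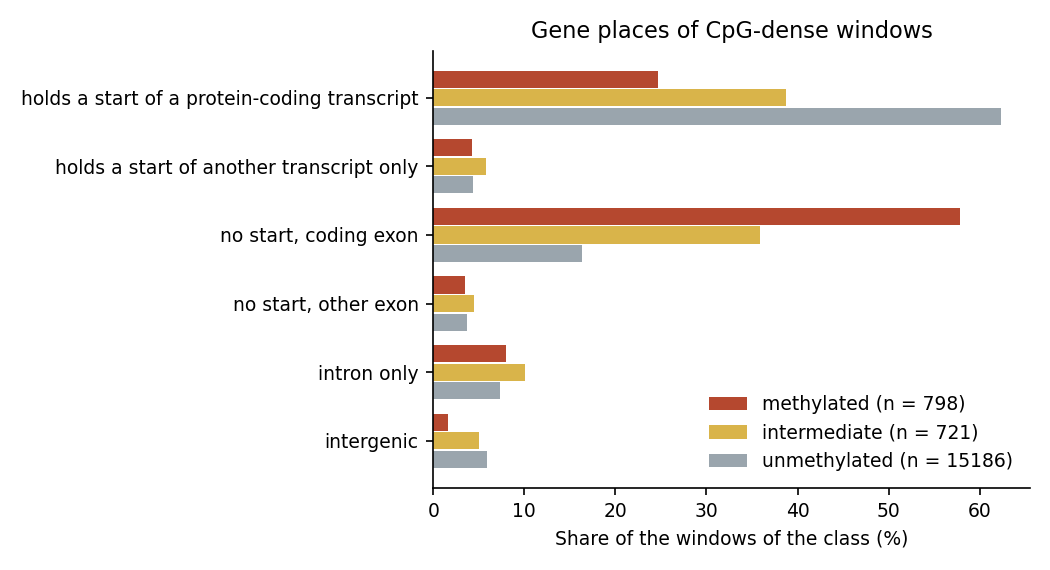
Share (x axis, %) of the methylated, intermediate and unmethylated CpG-dense windows in each of 6 places of the annotation (y axis). Coding exons without a start hold 57.9% of the methylated windows, and protein-coding starts hold 62.4% of the unmethylated ones.

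Their position within the gene differed in the same manner. Of the methylated windows in protein-coding genes, 57.6% had their centre in the last 50% of the gene, against 9.71% of the unmethylated ones, and 20.4% in the first 10%, against 76.8%. The median distance to the nearest start of a protein-coding transcript was 4677.5 bases, against 352.5 bases. Coding sequence made up at least 50% of the bases of 309 methylated windows, 38.7%, against 7.98%. Among the windows that held a protein-coding start, the start was the 5′ end of the whole gene in 115 of 197 methylated windows (58.4%) and in 81.0% of 9474 unmethylated ones, the others being internal starts. Only 1 of the 798 was more than 50% repeat-masked sequence.

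CpG density differed as well, and the difference between places was present at each density. The methylated windows held a median of 50 CpGs and the unmethylated ones 64, with a median GC content of 59.8% and 60.2%. Among coding-exon windows, the methylated share was 26.7% of those with 36 to 49 CpGs and 2.32% of those with 80 or more. Among windows with a protein-coding start, it was 3.804% and 1.01% in the same classes, below the coding-exon share in all 4 density classes. The motif TGCCGC, searched on both strands, was present in 50.5% of the methylated and 53.4% of the unmethylated windows.

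The surroundings of the methylated windows were methylated too. Over flanking windows that were not themselves CpG-dense, the pooled level 1 kb before the methylated windows, in the direction of the gene, was 91.0%, and 1 kb after them 90.3%. At 5 kb it was 77.1% before and 77.99% after, and at 10 kb 70.1% and 68.1%. Around the unmethylated windows the level was 10.97% at 1 kb before and 21.2% at 1 kb after, and 52.8% at 10 kb after. At methylated windows with a protein-coding start, the level 5 kb downstream was 86.2% and 5 kb upstream 75.4%. At those in coding exons the order was the other way round, with 74.8% after and 77.6% before.

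**Figure D3:**
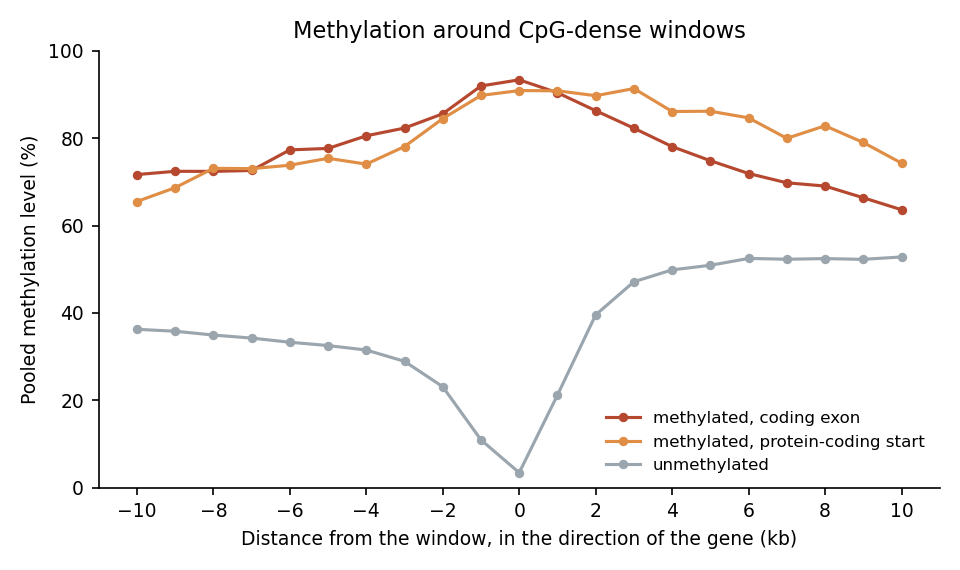
Pooled methylation level (y axis, %) of windows that are not CpG-dense, by their distance in kb in the direction of the gene (x axis), around methylated coding-exon windows, methylated windows with a protein-coding start, and unmethylated windows, with the chosen CpG-dense window itself at 0. The lowest value of the methylated sets is 63.6%, and the highest of the unmethylated set is 52.8%.

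They were found on all 19 autosomes, from 14 of 730 CpG-dense windows on chromosome 3 (1.92%) to 81 of 869 on chromosome 10 (9.32%). The methylated windows formed 706 runs, of which 629 were single windows, 72 pairs, and 5 longer. The longest run covered 10 adjacent windows in Plec, which encodes the cytoskeletal linker plectin (chr15:76172000-76181999), all with coding sequence over 82.7% to 100% of their bases and 570 CpGs in all. By library, the pooled level over this run was 94.9%, 99.2%, 91.6% and 93.8% in IFC. The SO libraries had 91.7%, 94.9%, 96.4%, 89.4% and 87.5%, the SOA libraries 94.0%, 93.5%, 96.9% and 94.1%, and the IV libraries 93.5%, 92.3% and 96.4%. The groups overlapped, and IV1 was not low there. Spen, which encodes a transcriptional repressor, held a run of 5 windows that were coding throughout (chr4:141474000-141478999), with a pooled level of 93.9%. The other long runs were 4 windows in Gnas (chr2:174297000-174300999, 95.8%), 3 in Maz and Kif22 (chr7:127025000-127027999, 90.7%) and 3 in Grin3b and Tmem259 (chr10:79976000-79978999).

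The 785 windows in genes belonged to 626 genes, 107 of them with at least 2 windows. Plec had the most, 11 of its 14 CpG-dense windows, all with coding sequence. Gnas had 7 of 12. Kdm2b, which encodes a histone demethylase that binds unmethylated CpG, and Pitx1, which encodes a homeodomain factor of hindlimb and pituitary development, had 6 of 6 each. In both genes the methylated windows included starts, 2 in Kdm2b and 3 in Pitx1, so that no CpG-dense window of either was unmethylated. Spen (5 of 8), the transcription factor gene Zfhx3 (5 of 10), the cadherin gene Fat1 (4 of 7), the H3K27 demethylase gene Kdm6b (4 of 6), Lzts2 (4 of 5) and Apc2 (3 of 4) followed, the last sharing its count with other genes and standing first by name. All the windows of Zfhx3, Fat1, Spen and Apc2 were in coding exons without a start, and the lowest pooled level among these 4 genes was 87.5% in Apc2.

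Maternally methylated imprinted genes were nearly all among them. Of 29 genes on a list of maternal germline imprints, 24 had a CpG-dense window in the gene or within 5 kb before it, and 22 of these (91.7%) had a methylated one. Among all protein-coding genes the count was 719 of 11947 (6.02%). The 22 genes were Mest, Peg3, Kcnq1ot1, Igf2r, Airn, Plagl1, Grb10, Peg10, Nnat, Gnas, Nespas, Inpp5f, Mcts2, H13, Zrsr1, Slc38a4, Peg13, Trappc9, Blcap, Commd1, Kcnq1 and Sgce, of which several share a window because one lies inside or beside another. Their 30 distinct windows had pooled levels of 92.1% to 97.9%. Some of these genes also had an unmethylated CpG-dense window at another start: the Igf2r start at 3.35%, the Grb10 start at 2.04%, the H13 start at 1.38%, the Kcnq1 start at 1.68% and the Commd1 start at 0.792%. The 2 genes without a methylated window were Zdbf2 (2.04%) and Ndn (8.70%). Zdbf2 was also on the list of paternally methylated imprints and is counted again there.

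The 30 windows were taken by gene, 6 of them in coding exons without a start, so some may lie outside a gDMR. Over them together, the level was 96.0% ± 0.787 (SD, n = 4) in IFC and 96.1% ± 0.935 (n = 5) in SO. In SOA it was 96.8% ± 1.35 (n = 4). In IV it was 93.3% ± 4.76 (n = 3), with 87.9% in IV1, 94.996% in IV2 and 96.9% in IV3. IV1 was the lowest of the 16 libraries, and the other 15 lay between 94.5% and 98.4%. At the Peg10 window chr6:4748000-4748999, IV1 had 46.2%, against 87.5% in IV2 and 97.4% in IV3.

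The counts for the other gene lists stand beside the 6.02% of all protein-coding genes and were not tested. None of the 13 germline and meiosis genes, 9 oocyte genes, 44 clustered protocadherins and 4 paternally methylated imprinted genes that had a CpG-dense window had a methylated one. Of 159 homeobox and developmental transcription factor genes with a CpG-dense window, 5 did (3.15%): Foxo3, Foxp1, Foxp4, Gata4 and Six5. The window counted for Six5 was a coding exon of the neighbouring Dmpk, within 5 kb before the Six5 start. Pitx1 was not on that list, and neither were the homeobox genes Zfhx3, Otx1, Evx1, Gsc and Lbx2, which also had methylated windows. The list thus does not hold all homeobox genes, and nothing is read from its 3.15% set beside the 6.02%. Zinc-finger proteins had 28 genes of 205 (13.7%), and 25 of their 30 windows were in coding exons without a start. Of 22 methylation and chromatin enzymes, 5 had one (22.7%). These were the maintenance methyltransferase Dnmt1 at a start (94.4%), the de novo methyltransferase Dnmt3b (90.2%), the 5-methylcytosine oxidase Tet3 at 2 starts (94.5% and 83.0%), and the histone methyltransferases Kmt2d (95.6%) and Ehmt2 (92.6%). The window counted for Ehmt2 lay before the gene, in C2 and Zbtb12, and held a start of C2. Over the 6 windows of these enzymes together, IFC stood at 86.3% ± 6.10 (SD, n = 4), SO at 94.0% ± 3.47 (n = 5), SOA at 94.4% ± 4.03 (n = 4) and IV at 90.3% ± 7.27 (n = 3). Over the 8 windows of the transcription factors the levels were 82.5% ± 9.69, 93.2% ± 3.59, 95.3% ± 2.01 and 92.8% ± 5.74 in the same order. IFC had the lowest mean on both lists. The lists hold 3 windows that were called lower in IFC than in SO, 1 of Tet3 and 2 of Foxp1, described further on. Further comparisons were added after the values were seen. With all windows, IFC without IFC4 had 85.7% ± 7.30 (n = 3) on the enzymes and 86.9% ± 4.72 on the other list. IV without IV1 had 94.5% ± 0.184 (n = 2) and 96.1% ± 0.762. Without the 3 called windows, the enzymes stood at 94.2% ± 5.32 in IFC and 93.2% ± 3.64 in SO. SOA had 94.8% ± 4.15 and IV 91.7% ± 5.25. The transcription factors then had 95.1% ± 1.05, 97.4% ± 1.28, 97.2% ± 1.25 and 93.1% ± 4.32 in the same order. IFC was then lowest on neither list, though these windows were left out for being low in IFC. IV without IV1 had 94.7% ± 0.415 and 95.6% ± 0.604 there.

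Among the windows with a protein-coding start, those with the most calls were in Slc27a3 (chr3:90389000-90389999, 945 calls, 89.6%), which encodes a fatty acid transport protein, Ube2f (chr1:91250000-91250999, 848 calls, 92.5%), a conjugating enzyme of the ubiquitin-like protein NEDD8, and Ippk (chr13:49421000-49421999, 843 calls, 80.8%), an inositol phosphate kinase. Then came Prep (97.5%), a prolyl peptidase, Tbpl1 (93.1%), a relative of the TATA-binding protein, Foxp4 (95.4%), Tet3 (83.0%), the kinase Sgk1 (94.9%), Gnas (96.0%) and BC034090 (96.2%). At Slc27a3, IV1 had 14.5% against 87.6% in IV2 and 98.8% in IV3. At Ube2f, IV1 had 17.2% against 95.8% and 97.8%. The other libraries with a value stood at 94.6% or more at Slc27a3 and at 88.0% or more at Ube2f.

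At least 5 covered positions in every library of the group were found for 513 of the 798 methylated windows in IFC. SO had 625 such windows, SOA had 378 and IV had 778. The level in single libraries was compared over the 219 methylated windows with at least 5 covered positions in every library. In IFC the means were 93.8%, 93.7%, 93.8% and 90.7%, or 93.0% ± 1.52 (SD, n = 4). In SO they were 94.5%, 94.7%, 94.3%, 90.5% and 92.2%, or 93.2% ± 1.82 (n = 5). In SOA they were 94.3%, 93.3%, 95.8% and 94.0%, or 94.3% ± 1.04 (n = 4), and in IV 88.1%, 94.4% and 94.1%, or 92.2% ± 3.58 (n = 3). The 4 groups overlapped, and without IV1 the IV mean was 94.3% ± 0.177 (n = 2). Over the unmethylated windows IV1 was the highest library, with 4.00% against 2.69% to 3.65% in the other 15.

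IV1 was furthest below the other libraries at starts, and IFC4 at starts and outside coding exons alike. Over the windows with a protein-coding start, the pooled level was 78.1% in IV1 and 82.5% in IFC4, and 88.7% to 94.6% in the other 14 libraries. Over coding-exon windows without a start, it was 89.7% in IV1 and 90.9% in IFC4, and 92.1% to 95.6% in the other 14. Over the windows of the other places, it was 83.4% in IV1 and 82.6% in IFC4, and 88.1% to 94.8% in the other 14. The gap between starts and coding exons within a library was widest in these 2 libraries. SO4 was the lowest of the SO libraries in both places. Of the windows with at least 5 positions, 45 of 660 were below 50% in IFC4 (6.82%) and 23 of 791 in IV1 (2.91%), while the other libraries had 0% to 2.34%. Of the 655 windows measured in both, 44 were low in IFC4 and 17 in IV1, and 5 were low in both, 11.4% and 29.4% of each. In IFC4, 22 of its 45 low windows held a protein-coding start, and in IV1 15 of 23. Such starts made up 158 of the 660 windows measured in IFC4 and 196 of the 791 in IV1. The cause was not tested.

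**Figure D4:**
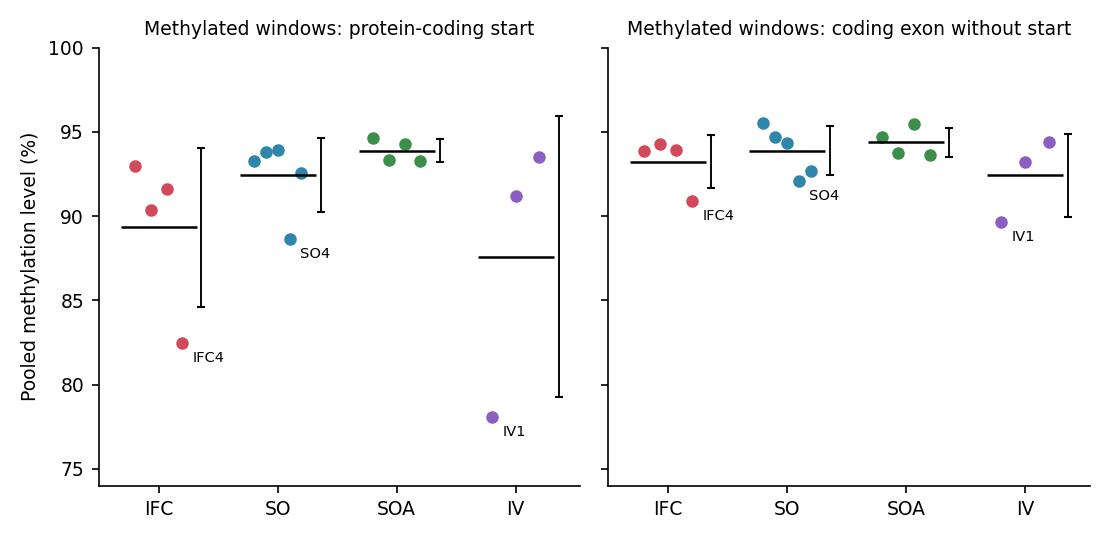
Pooled methylation level (y axis, %, from 74%) of the methylated windows with a protein-coding start (left) and of those in coding exons without a start (right), by group (x axis), 1 point per library, with the group mean as a line and the SD as a bar. IV1 at 78.1% and IFC4 at 82.5% lie below the others on the left, and all libraries lie between 89.7% and 95.6% on the right.

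The pooled level that chose the windows can also be split by group, as a description of the same calls. With the calls of each group pooled, 692 of the 798 (86.7%) were above 75% in all 4 groups, 81 in 3 of them, and 25 in 2 or fewer. Of the 798, IFC had 734 above 75%, SO had 773, SOA had 784 and IV had 769, but the deeper groups weigh more in the rule, so these counts give no order of the groups. A window below 50% in a single library was rare: 674 windows had no such library, 87 had 1, 22 had 2 and 15 had 3 or more, up to 4.

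Single windows were then tested between groups. The level of a window in a library is the mean over its covered positions, and a window was tested where every library of both groups had at least 5 of them. A logistic model with group as its only term was fitted to the calls of all CpG-dense windows that could be tested, and a window was called at a Benjamini-Hochberg adjusted p below 0.05 in the likelihood-ratio test and a difference of at least 20 points. This test takes calls and not libraries as its unit, so that 1 divergent library can make a call. The quasi-binomial F test and limma, which use the spread between libraries, called 1 of the methylated windows (Socs2) and 0, over the 4 comparisons. In the quasi-binomial test 3 methylated windows passed the adjusted p for SOA vs IV, 1 of them with 20 points, and 0 in each of the other comparisons. Over all CpG-dense windows 47 passed for SOA vs IV, 45 for SO vs SOA, 1 for IFC vs SO and 0 for IFC vs SOA. In limma, 29, 17, 25 and 16 methylated windows had an unadjusted p below 0.05, in the order in which the comparisons follow. This was 6.87%, 5.52%, 6.70% and 6.15% of those tested, against 3.64%, 3.57%, 4.96% and 4.02% of all CpG-dense windows tested. In the quasi-binomial test 35, 20, 30 and 31 had one, and here the shares were the smaller ones, with 8.29%, 6.49%, 8.04% and 11.9% of the methylated windows against 12.7%, 13.7%, 12.3% and 19.8% of all windows. This test divides by the spread between libraries at each window, with no lower limit. Its p can be too small where that spread is near 0, so nothing is read from its counts and shares over all windows. The 4 comparisons share groups, so they are not independent of each other.

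IFC and SO were of like age and differed in growth in culture or in the animal and in the hormones used, which were r-FSH and then r-hCG with r-EGF in the culture and eCG and hCG in the animal. It tested 8381 CpG-dense windows, 422 of them methylated, and called 17 methylated windows lower in IFC (4.03%) and 1 higher (0.237%). Over all windows tested the shares were 0.895% lower and 0.68% higher, but a window can fall by 20 points only from a level above that, and 15186 of the 16705 CpG-dense windows stood below 25%. The rule bears on the balance of lower and higher as well: the pooled level weighs each group by its calls, so a window low in the shallow IFC libraries could stay above 75% more easily than one low in a deeper group. Nothing is read from the balance of the counts, or from the shares set beside those of all windows, in any of the comparisons. Over the 422, 212 differences were below 0 and 209 above, with a median of -0.02 points. The sample means were 92.4% ± 2.27 (n = 4) in IFC and 93.3% ± 1.85 (n = 5) in SO, a difference of -0.97 points that was smaller than either SD. Without IFC4 the difference was 0.0195 points. Without IFC4, 8 windows were called lower, and with all libraries thinned to the depth of the shallowest the count was also 8. Without SO1 or SO2, 3 were called higher.

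The largest difference was in a coding exon of Lrrc8a (chr2:30256000-30256999, 55 CpGs), whose sequence is printed above. IFC1 to IFC4 had 61.1%, 16.7%, 41.7% and 46.1%, and SO1 to SO5 had 91.7%, 95.2%, 82.9%, 73.8% and 87.5%. The groups did not overlap, which held for 1 of the 17 windows, all called for a difference of at least 20 points. The difference was -44.8 points (41.4% ± 18.5 against 86.2% ± 8.36; adjusted p = 1.15e-05, likelihood-ratio test over all windows; 0.176 in the quasi-binomial test). It rested on 49 calls in IFC and 180 in SO and stayed between -36.6 and -51.4 points when any 1 library was left out. In the last 500 bases of the window, IFC had 12 methylated calls of 38 (31.6%) and SO 70 of 89 (78.7%), while in the first 500 IFC had only 11 calls, all methylated. SOA stood at 78.5%, with 76.5%, 58.3%, 87.5% and 91.7%, and IV had 85.5%, 72.6% and 94.0%.

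At the window with the start of Wbp1, a WW domain binding protein, beside Ino80b (chr6:83121000-83121999), IFC had 56.5%, 57.5%, 75% and 0%, and SO had 73.3%, 90%, 90.3%, 89.1% and 100%. IFC4 at 0% was the lowest, and IFC3 overlapped SO1. The difference was -41.3 points (47.3% ± 32.6 against 88.6% ± 9.59; adjusted p = 3.79e-08; quasi-binomial 0.232), and -25.6 points without IFC4. The only window higher in IFC was in a coding exon of Kank1, an actin regulator (chr19:25410000-25410999). There SO5 had 22.2%, the other SO libraries 69.6% to 100%, and IFC 89.2% to 100%, so that the 22.9 points (adjusted p = 5.40e-06) came to 10.1 without SO5.

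Of the 17 windows lower in IFC, 9 held a protein-coding start, 5 lay in coding exons, 2 in introns, and 1 held another start. Of all 798 methylated windows, 24.7% held a protein-coding start and 57.9% lay in coding exons without a start. The places of the 422 tested windows were not counted, so nothing is read from the places of the 17. Their pooled level, which includes the low IFC calls, ran from 75.4% to 86.4%. They included 2 adjacent windows of Foxp1, a forkhead transcription factor, and the Tet3 start at 83456000 on chromosome 6. At Tet3, IFC had 81.9%, 62.2%, 59.9% and 95.2%, and SO 92.6% to 100%. The difference was -22.5 points (adjusted p = 4.62e-12; quasi-binomial 0.234), and the call was lost without IFC2 or IFC3. IFC4, the IFC library with the most low windows, was the highest there. At the Foxp1 start window, IFC had 69.2%, 13.6%, 96.8% and 48.5%, and SO 41.7%, 100%, 100%, 94.7% and 79.1%, and the groups overlapped. That call was lost without IFC2. Both genes were named for the lists they belong to. The median dispersion over the methylated windows was 1.28 in this comparison, with a mean of 2.04. It is 1 where the spread between libraries is that of counting independent calls.

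SO and SOA compare prepubertal with adult superovulated females. Among 6605 windows tested, 308 were methylated, and 3 of these were lower in SO (0.974%) and 3 higher (0.974%), against 0.848% and 0.712% of all windows. Without SOA2, 5 were lower. The difference of the sample means was -0.86 points, within the SD of 1.58 (n = 5) in SO, and -0.289 points without SO4. At a coding exon of Rbm47, which encodes an RNA-binding protein (chr5:66026000-66026999), SO had 28.6%, 66.7%, 100%, 41.9% and 58.8%, and SOA 96.97%, 100%, 100% and 95.2%. Only SO3 reached the SOA range. The difference was -38.8 points (59.2% ± 27.2 against 98.0% ± 2.39; adjusted p = 2.33e-10; quasi-binomial 0.229), and it held without any 1 library, from -31.2 to -49.0 points. IV had 98.8%, 97.2% and 97.5%, and the 3 IFC libraries with a value 79.8%, 68.8% and 64.3%.

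The other two lower windows were in coding exons of Rps6ka4, a stress-activated kinase (chr19:6830000-6830999), and Abcc4, an ATP-driven exporter (chr14:118611000-118611999). At Rps6ka4, SO had 56.2%, 100%, 57.8%, 25.9% and 93.0%, and SOA 90.9% to 100%, a difference of -29.4 points (adjusted p = 4.22e-05) that was -19.2 without SO4. At Abcc4, SO had 100%, 71.4%, 60.8%, 66.1% and 28.8%, and SOA 85.7% to 99.0%, a difference of -27.6 points (adjusted p = 1.36e-07) that was -18.4 without SO5. The groups overlapped at both.

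The windows higher in SO each turned on 1 or 2 SOA libraries. At an exon of the gene model Gm13111 (chr4:154641000-154641999), SOA had 78.1%, 33.3%, 100% and 59.2%, and SO 89.7% to 100%, 28.3 points (adjusted p = 0.000761) that came to 16.9 without SOA2. At the start of Prickle1, a planar cell polarity gene (chr15:93519000-93519999), SOA2 had 0% over at least 7 positions, and the other SOA libraries 83.7% to 100%. The difference of 26.7 points (adjusted p = 0.00298) was 4.28 without it. At a coding exon of Sh2b3, an adaptor that restrains cytokine signalling (chr5:121828000-121828999), SOA3 had 22.2% and SOA1 73.1%, and the difference of 24.5 points (adjusted p = 0.00435) was 7.46 without SOA3. The call was also lost without SOA1.

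SOA and IV differ by superovulation in adults, and the IV females were synchronized by male pheromones. Of 8474 windows tested, 373 were methylated, and 5 were higher in SOA (1.34%) and 0 lower, against 0.531% and 0.13% of all windows. As in the comparison of IFC with SO, nothing is read from these shares or their balance. The count of 0 is from the likelihood-ratio test. Limma and the quasi-binomial test also gave 0 lower, with 0 and 1 higher. The replicate block gave 3 lower, a limit of 10 points 2, pooled calls 1, and leaving out 1 library 0 to 2. The sample means were 94.0% ± 0.772 (n = 4) in SOA and 91.5% ± 3.76 (n = 3) in IV, which differed by 2.54 points. The difference was 0.362 without IV1. The groups did not overlap at 3 of the 5 windows, all called for a difference of at least 20 points. Without IV1, 3 were called higher, and without IV2, IV3 or SOA3 13, 17 and 11 were.

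At Socs2 (chr10:95414000-95414999, 66 CpGs), in a coding exon, SOA had 100%, 100%, 100% and 97.8%, and IV had 75.6%, 66.1% and 75%. All 3 IV libraries were lower than all 4 of SOA. The difference was 27.2 points (99.5% ± 1.09 against 72.2% ± 5.34; adjusted p = 7.88e-09, and 0.0416 in the quasi-binomial F test, 0.157 in limma), and between 24.2 and 28.9 without any 1 library. It rested on 108 and 133 calls. In the first 500 bases, IV had 39 methylated calls of 65 (60%) and SOA 23 of 24, and in the last 500 IV had 54 of 68 (79.4%) and SOA 84 of 84. SO had 88.9% to 100% and the 3 IFC libraries with a value 94.1% to 100%, all above IV.

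At the window with the start of the chemokine gene Cxcl16, beside Zmynd15 (chr11:70459000-70459999, 51 CpGs), SOA had 94.1%, 100%, 100% and 100%, and IV 62.5%, 52.5% and 75%. The groups did not overlap here either. The difference was 35.2 points (adjusted p = 9.47e-08; quasi-binomial 0.189; limma 0.2501), and between 29.8 and 41.0 without any 1 library. All 4 IFC libraries stood at 100%. At the start held by Auts2, a neurodevelopmental gene (chr5:131538000-131538999), IV had 73.4%, 91.3% and 42.4%, and SOA 93.8% to 100%, 28.8 points (adjusted p = 2.88e-07) that came to 15.4 without IV3. The remaining pair, at the starts of Ube2f and of the gene model 2610021A01Rik, was named after its values were seen. Both turned on IV1, without which the differences were -2.57 and 3.12 points.

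**Figure D5:**
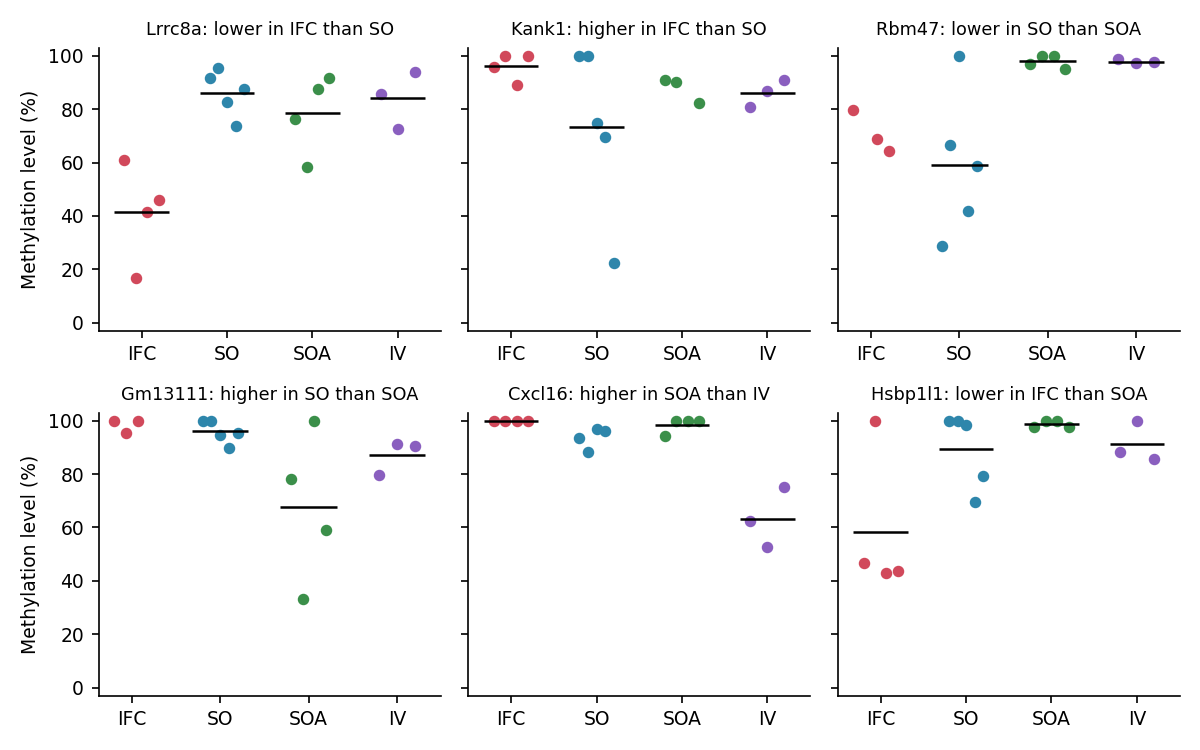
Methylation level (y axis, %) of the window with the largest called difference in each comparison and direction that had one, by group (x axis), 1 point per library with at least 5 covered positions, and the group mean as a line where every library has a value. Lrrc8a is low in all 4 IFC libraries and Cxcl16 in all 3 IV libraries, while at Kank1 SO5 alone lies near 22%.

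IFC and SOA differ in culture, age and hormones at once. Of 6088 windows tested, 260 were methylated, and 8 were lower in IFC (3.08%) and 0 higher, against 1.28% and 0.887% of all windows. Limma and the quasi-binomial test called 0 of them in either direction. Leaving out IFC2 gave 17 lower and leaving out SOA3 16, and 3 were higher without IFC4, 2 without SOA4 and 1 without SOA2. The sample means were 92.8% ± 1.58 (n = 4) and 94.2% ± 0.943 (n = 4), a difference of -1.46 points that was -0.214 without IFC4. At the start of Hsbp1l1 on chromosome 18, IFC had 46.7%, 100%, 42.9% and 43.8%, and SOA 97.7%, 100%, 100% and 97.7%. IFC2 alone reached SOA, and the difference was -40.5 points (adjusted p = 1.02e-11; quasi-binomial 0.133), between -35.4 and -54.4 without any 1 library. The Lrrc8a and Rps6ka4 windows described above differed by -37.1 points (adjusted p = 8.05e-05) and -35.9 points (adjusted p = 3.31e-05), with overlapping groups at both. The Rps6ka4 call was lost without IFC3. The fourth, at a start of Nav1 (-34.7 points, adjusted p = 4.80e-13), had IFC at 96.7%, 77.6%, 25% and 50% and SOA at 90.4% to 100%, and the groups overlapped. Nav1 was named after its values were seen, and Abcc4, the fifth, because it was described above. At Abcc4, IFC had 53.2%, 77.1%, 72.7% and 32.4%, all below the SOA libraries, and the difference was -34.2 points (adjusted p = 2.54e-11; quasi-binomial 0.128).

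Over the 4 comparisons there were 37 calls at 33 windows. The groups did not overlap in 6 of the 37, and 9 held whichever library was left out. All were chosen for a difference of at least 20 points. The share without overlap over all windows tested was not counted, so nothing is read from these counts or those by comparison.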

How the data were processed

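CpG methylation was measured by PBAT in 16 pools of MII oocytes. The authors trimmed the reads with Trim Galore 0.4.4 and cutadapt 1.9.1, aligned them to GRCm38 with Bismark 0.19.0, removed duplicates, and deposited, for each covered CpG position, a methylation percent with the read counts behind it in either state, per the labels and the methods. The CBA/Ca alleles were thus read against a C57BL/6J reference. Calls are read counts without molecular identifiers, so precision covers counting error only. Neighbouring CpGs on the same read give linked calls, which the likelihood-ratio test counts as independent, so its p-values can be too small. The replicates are pools, which p-values take as the unit only in limma and the quasi-binomial test.

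From these, calls were summed in windows of 1000 bases on chromosomes 1 to 19, and the windows were placed on the GENCODE M21 annotation. Group tests were two-sided, over all CpG-dense windows with at least 5 covered positions in every library of both groups. They were also run on simulated calls at the depths of IFC vs SO. These had no spread between libraries beyond counting, so they do not show how the tests behave with such spread. The members and gene lists were chosen with earlier results of these data known. The windows named are the 3 with the largest called difference per comparison and direction, the 10 genes richest in such windows, the 5 longest runs, the 10 start-holding genes with the most calls, list members, and the 3 windows on each side of the limit. 1 window and 1 sequence that these rules would give are not reported here. Unnamed gene models were left out where a named gene overlapped. Alternatives were other tests, coverage, differences, reference CpGs only, windows with over 5 times the median calls per position left out, thinning to the shallowest library, libraries below 12 M calls, and each library left out. Sequences are from GRCm38.p6 (RefSeq) and avoid annotated UTRs. Calculations used Python 3.11.15, numpy 2.4.6, scipy 1.17.1, pandas 2.3.3, matplotlib 3.10.9 and limma 3.58.1 in R 4.3.3.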

Additional observations from a re-analysis of the deposited data

Results flagged for a closer look

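Each group of 4 or 5 libraries was examined for a library far from the others, in 36 groups of values, and 6 stood out by Dixon's ratio at its 95% limit. Chance gives about 1 in 20 groups, a rate that does not apply to the 4 at single windows, since those were named for a group difference, and at 2 of them the other libraries tie at 100%. The IV group, with 3 libraries, was not examined. IFC4 was low in the mean over the methylated windows measured in all libraries, with 90.72% against 93.66% to 93.83% in the other IFC libraries, and in the pooled calls of all methylated windows, with 87.47% against at most 93.47%. SOA2 had 0% at the Prickle1 start, and the others in SOA reached up to 100%. IFC2 had 100% at the Hsbp1l1 start, where the lowest IFC library had 42.86%. SOA1 had 94.12% at Cxcl16 and SOA4 97.83% at Socs2, where the other SOA libraries were all at 100%, so that these 2 gaps are small in points.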

How the results depend on the processing

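The number of methylated windows was 829 above 70%, 748 above 80%, 797 with at least 200 calls, 807 with the windows shifted by 500 bases, 720 on reference CpGs only, and 792 to 802 without any 1 library. It was 3163 with at least 60 covered positions and 298 with at least 100. The calls depended on the test. The quasi-binomial test left 0 and 0 for IFC vs SO (lower and higher), 0 and 0 between SO and SOA, 0 and 1 for SOA vs IV, and 0 lower for IFC vs SOA, and limma left 0 in each. At least 20 positions left 0 and 0, 0 and 0, 1 higher, and 0 lower. Only 2, 4, 7 and 1 methylated windows could still be tested, among 307, 162, 517 and 144 CpG-dense windows, so these counts say little. A limit of 10 points gave 4 higher for IFC vs SO, 11 and 5 between SO and SOA, 2 and 21 for SOA vs IV, and 1 higher for IFC vs SOA, and a limit of 30 points 4 and 0, 1 and 0, and 1 higher in SOA. Differences of pooled calls gave 3 higher, 6 and 1, and 1 lower in SOA. Thinning all libraries to the shallowest gave 8 lower for IFC vs SO and 5 lower for SO vs SOA. Libraries below 12 M calls alone gave 0 higher for IFC vs SO, 5 higher for SO vs SOA and 2 higher for IFC vs SOA, where reference CpGs only gave 1. Without any 1 library, the calls ranged from 8 (without IFC4) to 21 lower and 1 to 3 higher for IFC vs SO, 2 to 5 (without SOA2) and 2 to 4 between SO and SOA, 0 to 2 and 3 to 17 for SOA vs IV, and 8 to 17 (without IFC2, and 16 without SOA3) and 0 to 3 for IFC vs SOA. For SOA vs IV, 11 were higher without SOA3. The windows tested change with each library, and the cause of these shifts was not tested otherwise. The differences of the sample means ranged from -1.67 to 0.0195 points for IFC minus SO, -1.22 to -0.289 for SO minus SOA, 0.362 to 3.78 for SOA minus IV and -2.20 to -0.214 for IFC minus SOA, and with at least 20 positions, on 2, 4, 7 and 1 windows, they were -4.00, 0.944, 7.72 and 3.90. With the replicate number as a block, calls were 17 and 1, 2 and 4, 3 and 8, and 8 and 0. Same-numbered libraries did not deviate together (r from -0.0903 to 0.0436 over 4824 windows). Of these windows 4389 were unmethylated, with little room for spread, so a shared batch was not tested by this. The fit with the block also leaves out the fifth SO library, which has no partner, and the calls at Kank1 (IFC vs SO) and Abcc4 (SO vs SOA) were lost in it as they were without that library alone. Of all 37 calls, the quasi-binomial test kept 1 and limma 0. SOA3, with a median of 6 covered positions per methylated window, limited which windows could be tested.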
